A study of Capra hircus with 3 samples.

Results

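The genes described here make up the cholesterol pathway: enzymes that build cholesterol, proteins that control those enzymes, and proteins that take up, move, export or store the product. The list holds 29 genes, and a member was found where a feature of the count tables carried exactly its symbol. In the 27271 features, of which 16616 carried a symbol, 25 of the 29 members were found. They comprised 16 of 18 synthesis enzymes, 4 of 5 control genes and 5 of 6 genes of uptake, transport and storage. ACAT2, EBP, SREBF1 and NPC1 were not analysed here.

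Cholesterol is built from acetyl-CoA through mevalonate. HMGCS1 makes the precursor of mevalonate, MVK, PMVK and MVD convert mevalonate into an activated isoprenoid, and IDI1 and FDPS lengthen it to farnesyl diphosphate, which also feeds protein prenylation. FDFT1 commits farnesyl units to squalene, SQLE and LSS form the first sterol ring system, and CYP51A1, TM7SF2, MSMO1, NSDHL, HSD17B7, SC5D and DHCR7 trim lanosterol towards cholesterol. The transcription factor SREBF2, escorted by SCAP and held back by INSIG1 and INSIG2, switches these enzymes on when sterols are scarce. In the testis, Leydig cells use cholesterol as the starting material of androgens, and Sertoli cells surround and nourish the germ cells.

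The study profiled fetal goat (Capra hircus) tissue by droplet-based single-cell RNA sequencing of the 3′ ends of transcripts. Each of the 3 libraries is labelled male testis, and each stands for a stage of its own, named by embryonic day: E85, E105 or E125. The labels give no strain and no number of animals, and the tissue had been dissociated with enzymes. Stage therefore cannot be told apart from library, no test between stages was possible, and no p-value is given. The intervals below are exact 95% intervals that cover counting error alone.

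The tables held 7478, 8520 and 8346 barcodes at E85, E105 and E125, with 45339231, 40741902 and 49692252 unique molecular identifiers (UMIs, each standing for 1 captured transcript). After filtering, 5948, 6645 and 6880 cells remained. Cells were assigned to classes by marker genes, and 61.05%, 67.75% and 34.19% of cells passed this gate. The libraries shared 23 barcode sequences among the cells kept, and 1 of these fell in the same class in both libraries.

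The library labelled E125 went against its label. Over the whole library, AMH, the hormone of fetal Sertoli cells, stood at 1398 CPM (a gene's UMIs scaled to a total of 1000000 UMIs) at E85 and 3879 CPM at E105, but at 32.8 CPM in the library labelled E125. ZP3, a protein of the oocyte coat, stood at 1.22 CPM at E85 and 2.57 CPM at E105, but at 2218 CPM in the library labelled E125. SRY, the Y-linked gene that starts testis formation, had 4 UMIs at E85, 5 UMIs at E105 and 0 UMIs in the library labelled E125. Its cells were therefore described as classes of their own, and comparisons of stages rest on E85 and E105.

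Sertoli-like cells numbered 1738 at E105 and 1952 at E85, germ-like cells 83 and 217, Leydig-like cells 28 and 17, and stromal-like cells 1945 and 881. The library labelled E125 held 706 stromal-like, 137 oocyte-like and 428 pregranulosa-like cells, the last carrying markers of the supporting cells of the fetal ovary. The defining markers sat where the names place them. AMH stood at 6907 CPM at E105 and 2200 CPM at E85 in Sertoli-like cells, with at most 187 CPM in any other class. INSL3, a Leydig cell hormone, stood at 3565 CPM at E105 and 1242 CPM at E85 in Leydig-like cells, with at most 16.03 CPM elsewhere. DDX4, a germ cell helicase, stood at 435 CPM at E105 and 433 CPM at E85 in germ-like cells, with 110 CPM in the oocyte-like cells and at most 8.66 CPM in the other classes. The median depth was 10096.5 UMIs at E105 and 10254 UMIs at E85 in Sertoli-like cells, 19599 and 18923 UMIs in germ-like cells, and 2222 and 2036 UMIs in stromal-like cells. Cells within a score of 0.1 of the gate's limits made up 4.9% of Sertoli-like cells at E105 and 7.3% at E85, 19.6% and 30.6% of stromal-like cells, and 36.0% of stromal-like cells in the library labelled E125. Levels in CPM are shares of a class's UMIs, so UMIs per cell are also given for some of the summed values.

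The 16 enzymes together took their largest shares of UMIs in stromal-like and mural-like cells of E85 and E105, Leydig-like cells of E105 and oocyte-like cells. In stromal-like cells their sum was 880 CPM at E85 and 1329 CPM at E105, while the library labelled E125 had 355 CPM. In Leydig-like cells it was 1282 CPM at E105 and 625 CPM at E85, and in the oocyte-like cells it was 1087 CPM. Sertoli-like cells held 634 CPM at E105 and 468 CPM at E85, and germ-like cells 328 and 337 CPM, the lowest of the gonadal classes. Counted per cell the order changed: stromal-like cells held 3.162 enzyme UMIs per cell at E105 and 1.885 at E85, Sertoli-like cells 6.598 and 4.996, germ-like cells 6.843 and 6.581, Leydig-like cells 11.393 and 5.294, and oocyte-like cells 82.124. The shares thus follow how much else a cell transcribes as well as how many enzyme transcripts it holds, and fewer transcripts per cell and more of other RNA cannot be told apart in CPM. A few abundant enzymes also weigh most in the sums. FDPS alone stood at 669 CPM in the oocyte-like cells, and IDI1 and MSMO1 at 318 and 248 CPM in E105 stromal-like cells. The sum therefore does not stand for each step of the pathway.

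**Figure D1:**
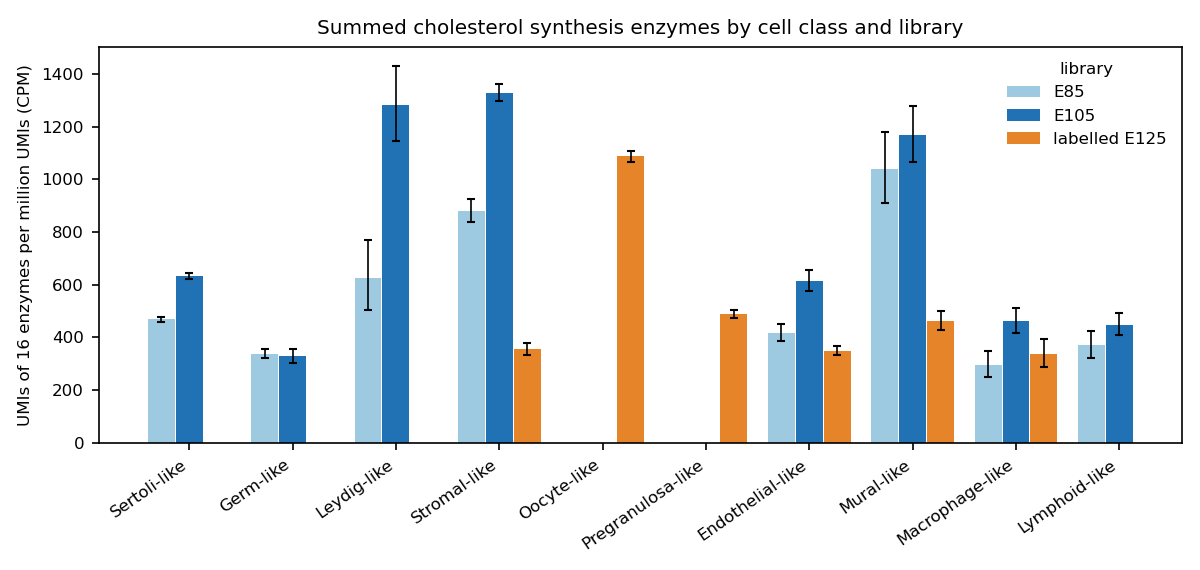
Summed level of the 16 synthesis enzymes (CPM, y axis) by cell class and library, with exact 95% counting intervals as error bars. Stromal-like cells stand at 880 and 1329 CPM at E85 and E105 and at 355 CPM in the library labelled E125, while germ-like cells stand at 328 CPM at E105 and 337 CPM at E85.

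Between stages, 7 of the 16 enzymes of Sertoli-like cells were higher at E105 than at E85 by at least 1.5-fold, MVK was lower, and no control or transport gene measured differed by that much. The enzyme sum was 634 CPM at E105 and 468 CPM at E85, a ratio of 1.35 (95% interval 1.32 to 1.39). A member was counted as higher or lower where its ratio was at least 1.5 either way, with at least 20 UMIs over both sums and at least 5 UMIs awaited in the smaller sum at equal levels. The 7 enzymes higher and the 1 lower were counted by that rule, and of the 4 control genes and 4 transport and storage genes measured, 0 passed it. Of the 7 enzymes, IDI1, FDFT1, MSMO1 and DHCR7 had intervals above 1, while those of PMVK, MVD and HSD17B7 included 1. Over all features measured, 13.5% were higher and 5.11% were lower. The median log2 ratio was 0.38 over the 24 members measured and 0.08 over all features. The count of 8 is close to the threshold: 5 members passed after TMM scaling, which sets the typical gene to no difference, and 3 passed when clusters replaced the gate.

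Step by step, the mevalonate part of the pathway was uneven in Sertoli-like cells. HMGCS1, the entry enzyme, stood at 30.3 CPM at E105 and 23.3 CPM at E85, a ratio of 1.30 (1.15 to 1.48). MVK, the mevalonate kinase that follows, stood at 18.2 CPM at E105 and 27.9 CPM at E85, a ratio of 0.65 (0.57 to 0.75). So MVK alone among the enzymes of this stretch was lower at E105. IDI1, the isomerase, stood at 159 CPM at E105 and 106 CPM at E85, a ratio of 1.501 (1.42 to 1.59), at the very edge of the threshold. FDPS, the farnesyl diphosphate synthase, stood at 189 CPM at E105 and 147 CPM at E85, a ratio of 1.29 (1.22 to 1.35). PMVK and MVD had at most 38 UMIs in a library, and the intervals of both ratios included 1. IDI1 and FDPS have processed copies in mammalian genomes that could share reads, so their levels carry that uncertainty.

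From squalene onwards, FDFT1, MSMO1, HSD17B7 and DHCR7 passed the threshold in Sertoli-like cells, and the other steps did not. FDFT1, the squalene synthase, stood at 12.6 CPM at E105 and 8.16 CPM at E85, a ratio of 1.54 (1.26 to 1.89). MSMO1, the methyl oxidase that starts removal of the C4 methyl groups, stood at 136 CPM at E105 and 87.7 CPM at E85, a ratio of 1.56 (1.46 to 1.65). DHCR7, a reductase at the end of the pathway, had 65 UMIs at E105 and 46 UMIs at E85, a ratio of 1.63 (1.10 to 2.43). CYP51A1, SQLE and TM7SF2 lay below the threshold, with ratios of 1.46, 1.38 and 1.40 and intervals above 1. NSDHL, the dehydrogenase that acts after MSMO1, was at 0.75 (0.59 to 0.96), and LSS and SC5D had intervals that included 1. MSMO1 and NSDHL, which act one after the other, thus differed between the stages in opposite directions.

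Among the control genes of Sertoli-like cells, SREBF2 stood at 47.5 CPM at E105 and 36.6 CPM at E85, a ratio of 1.30 (1.18 to 1.43). INSIG2, which retains the SCAP complex in the endoplasmic reticulum, stood at 32.9 CPM at E105 and 32.3 CPM at E85, a ratio of 1.02 (0.91 to 1.14). The intervals of SCAP, INSIG1, NPC2, STARD4, ABCA1 and SOAT1 also included 1. LPL, a lipoprotein lipase, had 5 UMIs at E105 and 4 UMIs at E85 in Sertoli-like cells and was too rare to compare. The 7 Sertoli markers, 0 of them at 0 UMIs, summed to 10886 CPM at E105 and 4720 CPM at E85, dissociation stress genes at 965 and 748 CPM, and proliferation genes at 321 and 234 CPM, and their part in the enzyme values was not tested. In the largest Sertoli-like cluster alone, with 1245 cells at E105 and 1582 cells at E85, the enzyme sum was 610 CPM at E105 and 461 CPM at E85, a ratio of 1.32.

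In stromal-like cells 7 of the 13 enzymes measured were higher at E105, among them HMGCS1 at the start of the pathway and MSMO1 among the sterol steps, and 0 were lower. The enzyme sum was 1329 CPM at E105 and 880 CPM at E85, a ratio of 1.51 (1.43 to 1.59). Of the 22 members measured, 10 were higher at E105 and 0 were lower, while 16.3% of all features were higher and 5.49% were lower. The 10 were 7 enzymes, INSIG1, STARD4 and LPL, of which MVD and STARD4 had intervals that included 1, and the median log2 ratio was 0.47 over the members measured and 0.07 over all features. In E85 stromal-like cells 12.13% of UMIs, and in E105 stromal-like cells 7.59% of UMIs, were estimated to be free RNA, from the markers of other classes. The 9 markers of mural cells, a class with a similar enzyme share, summed to 675 CPM in stromal-like cells at E105 and 420 CPM at E85, with 1 and 2 of them at 0 UMIs, and their part was not tested.

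HMGCS1 stood at 135 CPM at E105 and 84.3 CPM at E85 in stromal-like cells, a ratio of 1.60 (1.34 to 1.91). IDI1 stood at 318 CPM at E105 and 199 CPM at E85, a ratio of 1.59 (1.42 to 1.79). Both act before squalene, and both were higher at E105. SQLE, the epoxidase and second control point of the pathway, stood at 101 CPM at E105 and 58.3 CPM at E85, a ratio of 1.73 (1.40 to 2.15). CYP51A1, the lanosterol demethylase, stood at 106 CPM at E105 and 61.5 CPM at E85, a ratio of 1.73 (1.41 to 2.13). MSMO1 stood at 248 CPM at E105 and 156 CPM at E85, a ratio of 1.59 (1.40 to 1.81), and FDFT1 was at 1.54 (1.17 to 2.05). Below the threshold, FDPS was at 1.37 and SC5D at 1.40, both with intervals above 1, while MVK was at 0.82 (0.64 to 1.06). INSIG1 had 33 UMIs at E105 and 5 UMIs at E85, a ratio of 2.69 (1.04 to 8.83), and SREBF2 was at 1.33 (1.11 to 1.60).

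LPL, which releases fatty acids from lipoproteins at the vessel wall, had the largest ratio of the members measured in stromal-like cells. It stood at 54.9 CPM at E105 and 11.1 CPM at E85, a ratio of 4.93 (3.16 to 8.10). The stromal-like class differed in make-up between the libraries: a cluster led by CCN3 held 30.0% of the class at E105 and 83.5% at E85, and a cluster led by C7 held 62.7% at E105 and 7.7% at E85. Within the CCN3-led cluster, LPL stood at 18.5 CPM at E105 and 12.5 CPM at E85, a ratio of 1.48 whose interval of 0.78 to 2.84 included 1. Within the C7-led cluster it had 208 UMIs at E105 and 1 UMI at E85, a ratio of 11.9 (2.11 to 472). The summed enzymes behaved otherwise, being higher at E105 in both clusters. The sum in the CCN3-led cluster was 1358 CPM in 583 cells at E105 and 867 CPM in 736 cells at E85, a ratio of 1.57 (1.46 to 1.68). In the C7-led cluster it was 1336 CPM in 1219 cells at E105 and 694 CPM in 68 cells at E85, a ratio of 1.93 (1.59 to 2.35).

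**Figure D2:**
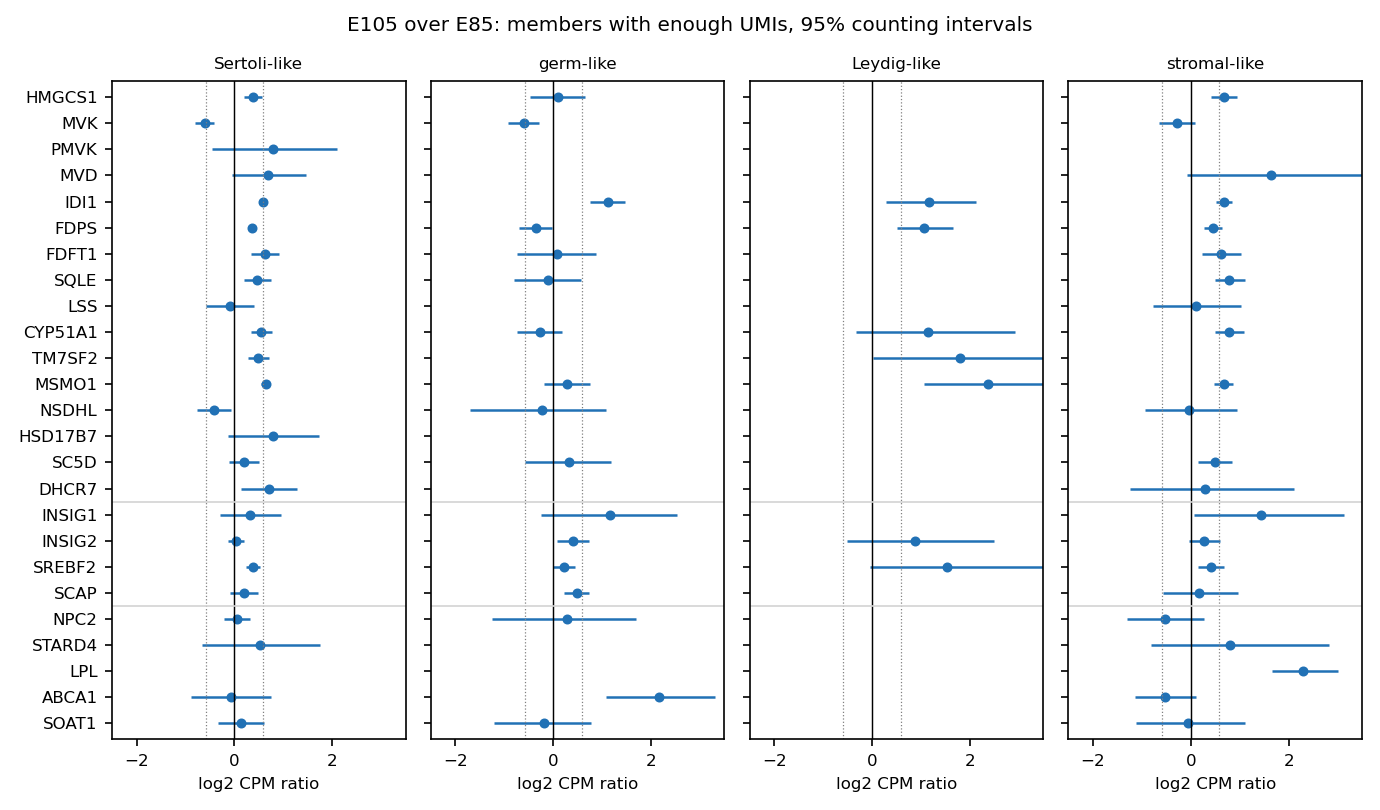
Log2 ratio of E105 over E85 for each member measured (x axis), in Sertoli-like, germ-like, Leydig-like and stromal-like cells, with 95% counting intervals cut at the panel edge. Dotted lines mark 1.5-fold and grey lines part enzymes, control genes and transport genes. IDI1 lies right of 0 in all 4 panels, at ratios of 1.501, 2.17, 2.23 and 1.59, and MVK lies left of 0 in the Sertoli-like, germ-like and stromal-like panels, at 0.65, 0.66 and 0.82.

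Germ-like cells did not show the same difference. Their summed enzymes stood at 328 CPM at E105 and 337 CPM at E85, a ratio of 0.97 (0.88 to 1.07). Free RNA was estimated at 12.14% of germ-like UMIs at E105 and 20.93% at E85, so this limit weighs unequally on the stages compared. Of the 17 members measured, 3 were higher at E105 and 1 was lower, while 19.8% of all features were higher and 4.94% were lower, and the median log2 ratio was 0.23 over the members measured and 0.20 over all features. That split depends on scaling: of 10315 features, 2043 were higher and 510 were lower in CPM, and 1217 were higher and 927 were lower after TMM scaling. IDI1 stood at 72.1 CPM at E105 and 33.3 CPM at E85, a ratio of 2.17 (1.69 to 2.78). ABCA1, the exporter of cholesterol, had 22 UMIs at E105 and 12 UMIs at E85, a ratio of 4.48 (2.12 to 9.93). ABCA1 reached the minimum of 20 UMIs through its E105 UMIs, so the filter favours rare members that are high at E105. The count of 3 is not read further. MVK stood at 63.5 CPM at E105 and 96.1 CPM at E85, a ratio of 0.66 (0.53 to 0.82), and FDPS was at 0.78 (0.62 to 0.98). The interval of INSIG1, the last of the 3 members counted as higher, ran from 0.85 to 5.76. SCAP, at 111 CPM at E105 and 79.8 CPM at E85, and INSIG2, at 69.2 and 51.9 CPM, had ratios of 1.40 and 1.33 with intervals above 1.

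In Leydig-like cells 7 of the 25 members had enough UMIs to compare, and these 7 were higher at E105, against 17.5% of all features higher and 11.5% lower. The class had 28 cells at E105 and 17 cells at E85, and a member such as TM7SF2 reached the minimum of 20 UMIs through its E105 UMIs, so the filter itself favours members that are high at E105 and nothing is read from the count. MSMO1 stood at 181 CPM at E105 and 34.7 CPM at E85, a ratio of 5.21 (2.08 to 16.8). FDPS stood at 510 CPM at E105 and 243 CPM at E85, a ratio of 2.10 (1.44 to 3.15), and IDI1 at 217 and 97.2 CPM, a ratio of 2.23 (1.22 to 4.35). TM7SF2, a sterol reductase that acts after CYP51A1, had 18 UMIs at E105 and 3 UMIs at E85, a ratio of 3.47 (1.01 to 18.4). For CYP51A1, SREBF2 and INSIG2 the ratios were 2.20, 2.90 and 1.83, and their intervals included 1. The enzyme sum was 1282 CPM at E105 and 625 CPM at E85, a ratio of 2.05 (1.62 to 2.62). The 18 members below the count minimum in this class were not compared, and with a minimum of 1 UMI the median log2 ratio was 0.086. The 5 Leydig markers, 0 of them at 0 UMIs, summed to 5302 CPM at E105 and 2554 CPM at E85, and their part in these values was not tested.

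The smaller classes showed how far the difference reached. Summed, the enzymes were higher at E105 in endothelial-like cells, at 615 CPM against 417 CPM at E85, a ratio of 1.47 (1.33 to 1.64). It was also higher in macrophage-like cells, at 461 CPM at E105 and 296 CPM at E85, a ratio of 1.56 (1.28 to 1.91). In mural-like cells it was 1169 CPM at E105 and 1039 CPM at E85, a ratio of 1.13 whose interval of 0.96 to 1.32 included 1. The mural-like class was mixed: its 12 stromal markers summed to 7543 CPM at E105 and 6786 CPM at E85, more than its 9 mural markers at 5651 and 4510 CPM, and 34.1% of its cells at E105 and 9.3% at E85 lay in the C7-led stromal cluster, with 11.9% and 23.7% in the CCN3-led one. In endothelial-like cells 7 of 16 members were higher and 0 were lower, against 14.5% of all features higher and 5.29% lower, and in mural-like cells 2 of 12 were higher and 1 was lower, against 19.1% higher and 7.02% lower. After TMM scaling 874 features were higher and 517 were lower in endothelial-like cells, against 1055 and 384 in CPM, and 597 were higher and 385 were lower in mural-like cells, against 720 and 265 in CPM. In macrophage-like cells 7 of 13 members measured were higher and 1 was lower, against 14.1% of all features higher and 12.3% lower. In lymphoid-like cells 3 of 10 were higher and 1 was lower, against 13.8% higher and 14.0% lower. These classes differed in make-up too. A cluster led by CLEC9A held 25.7% of macrophage-like cells at E105 and 11.0% at E85, where free RNA was 6.71% and 15.5% and proliferation genes summed to 142 and 23.1 CPM. A cluster led by VPREB1 held 6.0% of lymphoid-like cells at E105 and 26.7% at E85. The part of these differences in the ratios was not tested. By gene, IDI1 was measured in all 8 classes that both libraries hold, and was counted as higher at E105 in 7 of them, with intervals above 1 in 6; in macrophage-like cells it turned lower with a stricter gate, at a log2 ratio of −0.46. MSMO1 was counted as higher in 5 of 8 classes. MVK was counted as lower in 3 of 7 classes and as higher in 0. All these ratios share the same E105 and E85 libraries, so the classes are not independent repeats of the stage comparison.

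Within a library, Sertoli-like cells held less of most members than stromal-like cells in CPM, with TM7SF2 the exception. At E105, 17 of 24 members measured were lower in Sertoli-like cells and 1 was higher, where 51.6% of all features were lower and 16% were higher. At E85, 12 of 18 were lower and 1 was higher, where 48.0% of all features were lower and 17.9% were higher. The whole transcriptome leans this way, with median log2 ratios over all features of −0.62 at E105 and −0.53 at E85, and after TMM scaling the features split into 3158 higher and 2997 lower at E105, against 1738 and 5590 in CPM, and into 2538 higher and 2261 lower at E85, against 1505 and 4034 in CPM. Ratios relative to that median are therefore given beside the plain ones.

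HMGCS1, FDFT1, SQLE, CYP51A1 and SC5D stood far below the median shift. SQLE stood at 13.8 CPM in Sertoli-like and 101 CPM in stromal-like cells at E105, a ratio of 0.14 and of 0.21 relative to the median. At E85 it stood at 9.99 and 58.3 CPM, a ratio of 0.17 and of 0.25 relative to the median. In plain ratios, not set against the median, HMGCS1 stood at 0.23 at E105 and 0.28 at E85 and FDFT1 at 0.23 at both. CYP51A1 stood at 0.22 and 0.26, and SC5D at 0.16 and 0.20. The isoprenoid steps and MSMO1 followed the transcriptome more closely: relative to the median, IDI1 was at 0.77 in both libraries, MSMO1 at 0.85 at E105 and 0.81 at E85, and FDPS at 1.26 and 1.27. The enzyme sum relative to the median was 0.73 at E105 and 0.77 at E85.

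TM7SF2 had the reverse pattern. It had 402 UMIs (22.2 CPM) in Sertoli-like and 17 UMIs (3.67 CPM) in stromal-like cells at E105, a ratio of 6.05 (3.73 to 10.5). At E85 it had 330 UMIs in Sertoli-like cells and 1 UMI in stromal-like cells, a ratio of 29.9 (5.33 to 1184). It was also seen in Leydig-like cells and, in the library labelled E125, in pregranulosa-like cells, while macrophage-like cells of the 3 libraries had 0 UMIs. LPL and ABCA1 lay on the stromal side: LPL had 5 UMIs in Sertoli-like and 254 UMIs in stromal-like cells at E105, and ABCA1 stood at 1.38 and 13.6 CPM. SREBF2 stood at 47.5 CPM in Sertoli-like and 109 CPM in stromal-like cells at E105, and at 36.6 and 82.2 CPM at E85, ratios of 0.43 and 0.45, or 0.67 and 0.64 relative to the median.

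Germ-like cells differed from Sertoli-like cells in a divided way. In plain CPM ratios most of the control genes were higher, and many of the enzymes were lower. Of the control genes, 4 of 4 at E105 and 3 of 4 at E85 were higher in germ-like cells. However, INSIG2 turned lower at E85 after TMM scaling, at a log2 ratio of −0.31. INSIG1 at E85 had a log2 ratio of 0.30, under the median of 0.96 over all features. Of the enzymes measured, 1 was higher and 7 were lower at E105, and 3 were higher and 7 were lower at E85, where SQLE turned lower after TMM scaling, at −0.31. Over all features 57.9% were higher and 19.9% were lower at E105, and 58.8% were higher and 19.1% were lower at E85, so a higher ratio in germ-like cells was the common case. After TMM scaling 2953 features were higher and 3319 were lower at E105, against 5130 and 1766 in CPM, and 4003 were higher and 4105 were lower at E85, against 6528 and 2123 in CPM.

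SCAP, the escort of SREBF2, stood at 111 CPM in germ-like and 11.4 CPM in Sertoli-like cells at E105, and at 79.8 and 9.94 CPM at E85. Its ratios were 9.78 (8.0 to 12.0) at E105 and 8.03 (6.73 to 9.59) at E85, or 5.19 and 4.13 relative to the median. SREBF2 stood at 146 and 47.5 CPM at E105 and at 124.9 and 36.6 CPM at E85, ratios of 3.07 and 3.41, or 1.63 and 1.76 relative to the median. MVK was the enzyme on the high side in both libraries, with ratios of 3.48 at E105 and 3.45 at E85, or 1.85 and 1.78 relative to the median. INSIG2 had ratios of 2.10 at E105 and 1.61 at E85, the second of which lies under the median of all features, at 0.83 relative to it. LBR, a gene outside the list whose product carries the same sterol reductase activity as TM7SF2, stood at 155 CPM in germ-like and 48.1 CPM in Sertoli-like cells at E105 and at 128 and 35.6 CPM at E85.

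On the low side, MSMO1 stood at 35.2 CPM in germ-like and 136 CPM in Sertoli-like cells at E105, and at 28.8 and 87.7 CPM at E85, ratios of 0.26 and 0.33. IDI1 was at ratios of 0.45 and 0.31, and FDPS at 0.31 and 0.51. TM7SF2 had 1 UMI in germ-like and 402 UMIs in Sertoli-like cells at E105, and 7 and 330 UMIs at E85. LSS, the cyclase that forms lanosterol, had 0 UMIs in germ-like and 66 UMIs in Sertoli-like cells at E105, at least 2.11-fold lower against a floor of 3 UMIs, and 2 and 81 UMIs at E85. Free RNA, estimated from other classes' markers, made up 12.14% of germ-like UMIs at E105 and 20.93% at E85. The 7 Sertoli markers summed to 1335 CPM in germ-like cells at E105 and 882 CPM at E85, but unevenly. AMH stood at 97.5 CPM in germ-like cells at E105 and 18.9 CPM at E85, against 3879 and 1398 CPM over the whole libraries. SOX9 stood at 107 and 72.7 CPM, against 182 and 219 CPM. The estimate is a median over several marker lists, so subtracting it may take away too much or too little of the Sertoli transcripts. With that free RNA subtracted at E85, the log2 ratio was −2.74 for MSMO1 in place of −1.61 and −3.10 for IDI1 in place of −1.67. For SCAP it was 3.27 in place of 3.01. For TM7SF2 the subtraction left no germ-like UMIs. A floor of 1 UMI then gave −5.77 in place of −3.26, a value set by that floor and not a measured ratio.

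**Figure D3:**
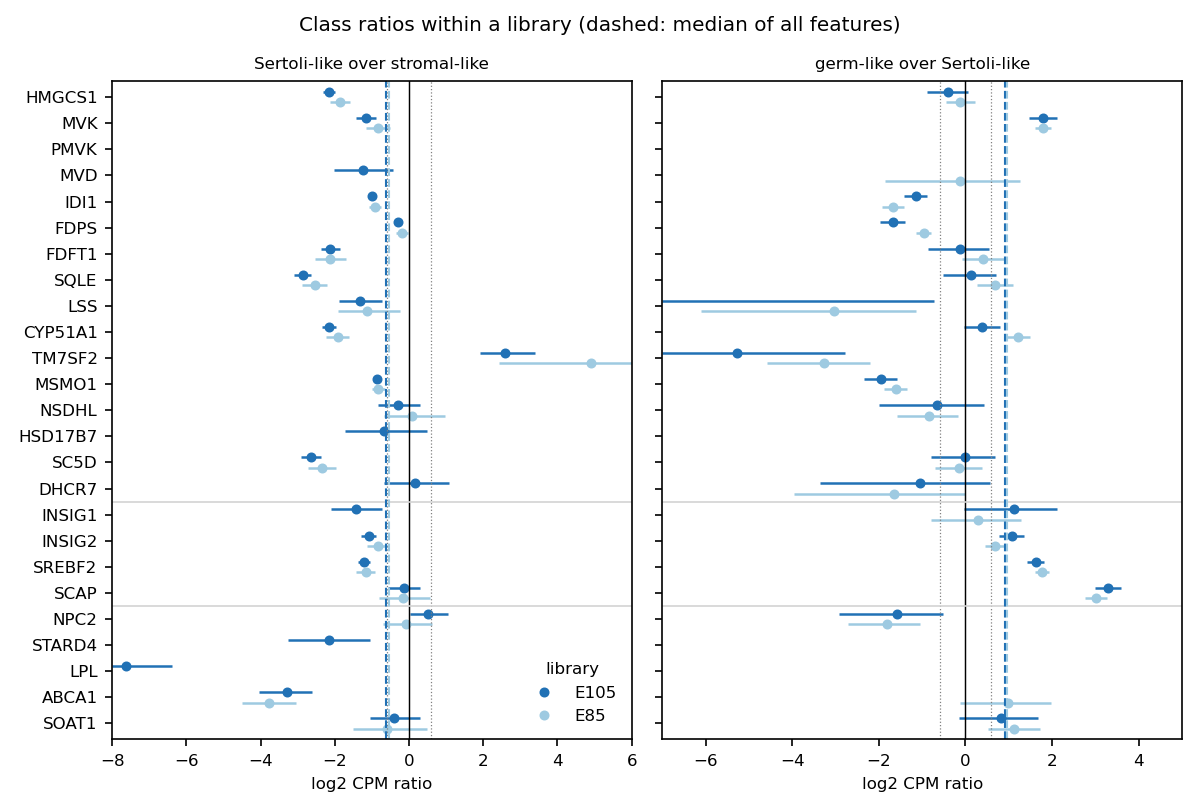
Log2 ratio of Sertoli-like over stromal-like and of germ-like over Sertoli-like cells for each member measured (x axis), at E105 and E85, with 95% counting intervals and the median of all features as dashed lines. TM7SF2 stands to the right in the Sertoli-like panel, at ratios of 6.05 and 29.9, and SCAP to the right in the germ-like panel, at 9.78 and 8.03. LSS at E105 has 0 UMIs in germ-like cells and is drawn as an interval with no point.

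Leydig-like cells stood above Sertoli-like cells at E105, where 5 of 8 members measured were higher and 0 were lower, against 20.2% of all features higher and 26.1% lower. Summed enzymes stood at 1282 CPM in Leydig-like and 634 CPM in Sertoli-like cells, a ratio of 2.02 (1.80 to 2.26). FDPS stood at 510 CPM in Leydig-like and 189 CPM in Sertoli-like cells, a ratio of 2.71 (2.25 to 3.23). CYP51A1 and TM7SF2 had ratios of 3.21 (1.92 to 5.08) and 3.26 (1.91 to 5.21), while IDI1 and MSMO1 were below the threshold at 1.36 and 1.33. The control genes INSIG2 and SREBF2 had ratios of 2.32 (1.39 to 3.65) and 1.69 (1.03 to 2.63). At E85, 4 members could be compared, of which FDPS was higher at 1.66 (1.15 to 2.31) and MSMO1 lower at 0.40 (0.13 to 0.93), with 18.1% of all features higher and 29.1% lower. MSMO1 thus stood below the Sertoli-like level in E85 Leydig-like cells and within 1.5-fold of it in E105 Leydig-like cells. The E85 value rests on 17 cells with 144066 UMIs in all, and so on few MSMO1 UMIs. The 7 Sertoli markers summed to 673 CPM in Leydig-like cells at E85 and 249 CPM at E105, with 1 and 2 of them at 0 UMIs. Their part was not tested.

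Sertoli-like cells with a UMI of TOP2A, a topoisomerase of dividing cells, were set against those without. A UMI is found more readily in deeper cells, and the median depth was 13130 UMIs with TOP2A and 9737 UMIs without at E105, and 13803 and 10040 UMIs at E85, so the split is by depth as well and is not read as a measure of proliferation. The summed enzymes reached 717 CPM in the 193 cells with TOP2A and 620 CPM in the 1545 cells without at E105, a ratio of 1.16 (1.10 to 1.22). At E85 it was 499 CPM in 185 cells with TOP2A and 464 CPM in 1767 cells without, a ratio of 1.08 (1.01 to 1.14). Of the members measured, 0 of 20 were higher and 2 were lower at E105, where 14.4% of all features were higher and 8.34% were lower. At E85, 1 of 19 was higher and 3 were lower, where 13.1% were higher and 8.85% were lower. In CPM 1302 features were higher and 756 were lower at E105, and 1149 and 777 at E85, against 1056 and 990 at E105 and 926 and 945 at E85 after TMM scaling. TM7SF2 was lower in cells with TOP2A in both libraries, at 10.1 CPM against 24.3 CPM at E105 and at 5.52 CPM against 17.4 CPM at E85, ratios of 0.42 (0.27 to 0.62) and 0.32 (0.18 to 0.53). LBR, the other gene with that reductase activity, was higher in them, at 103 CPM against 38.6 CPM at E105 and at 72.8 CPM against 30.0 CPM at E85.

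In stromal-like cells of the library labelled E125 the enzymes took a much smaller share of UMIs than in those of E85. The enzyme sum was 355 CPM in the library labelled E125 and 880 CPM at E85, a ratio of 0.40 (0.37 to 0.44). Counted per cell the gap was smaller, at 1.292 enzyme UMIs in the library labelled E125 and 1.885 at E85. The median depths were 3157 and 2036 UMIs. All 11 enzymes that could be compared were lower in the library labelled E125, while of the 3 control genes measured 0 were lower. Of the 17 members measured, 12 were lower and 0 were higher, where 27.7% of all features were lower and 24.6% were higher, with medians of −0.98 and −0.11 on the log2 scale. After TMM scaling 2008 features were lower and 2368 were higher, against 2370 and 2110 in CPM. Since what this library holds contradicts its label, stage, tissue and library cannot be told apart in these values. The stromal-like cells of the library labelled E125 lay in other clusters than those of E85 and E105. A cluster led by COL1A2 held 69.5% of them, and a cluster led by MGP held 27.8%. These were 491 of the 1383 cells of the COL1A2-led cluster and 196 of the 3009 cells of the MGP-led cluster. The class thus leaves out most cells of both clusters.

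HMGCS1 stood at 24.6 CPM in the library labelled E125 and 84.3 CPM at E85, a ratio of 0.29 (0.21 to 0.39). IDI1 stood at 57.7 and 199 CPM, a ratio of 0.29 (0.24 to 0.35), and MSMO1 at 59.6 and 156 CPM, a ratio of 0.38 (0.31 to 0.47). Against E85, the control genes measured did not follow: INSIG2 stood at 79.9 CPM in the library labelled E125 and 57.8 CPM at E85, a ratio of 1.38 (1.09 to 1.76), and SREBF2 at 108 and 82.2 CPM, a ratio of 1.31 (1.08 to 1.61). ABCA1 was lower, at 6.63 CPM against 19.6 CPM at E85, and LPL stood at 10.5 CPM against 11.1 CPM at E85. LBR, outside the list, was higher, at 202 CPM against 76.9 CPM at E85, a ratio of 2.63 (2.19 to 3.19). Set against E105 instead, 16 of 20 members were lower and 0 were higher in the library labelled E125, where 32.0% of all features were lower and 19.2% were higher in CPM, and where 2331 features were lower and 2297 higher after TMM scaling, against 3093 and 1859 in CPM. This second comparison uses the same stromal-like cells of the library labelled E125. One control gene was lower in it, INSIG1, with 2 UMIs in the library labelled E125 and 33 UMIs at E105, a ratio of 0.11 (0.01 to 0.43). INSIG1 reached the count minimum through its E105 UMIs, so the filter favours rare members that are high at E105. INSIG2, SREBF2 and SCAP had ratios of 1.14, 0.99 and 1.03 with intervals that included 1. Elsewhere, the enzymes summed to 461 CPM in mural-like cells of that library and 1039 CPM at E85, 349 and 417 CPM in endothelial-like cells, and 338 and 296 CPM in macrophage-like cells. Counted per cell, mural-like cells held 2.614 enzyme UMIs in that library and 2.474 at E85, and endothelial-like cells 2.73 and 2.375. Macrophage-like cells held 1.83 and 1.195. In mural-like and endothelial-like cells the direction thus differed between CPM and UMIs per cell. Against E105, where the sums were 1169 CPM in mural-like, 615 CPM in endothelial-like and 461 CPM in macrophage-like cells, the library labelled E125 was lower in each of these classes.

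**Figure D4:**
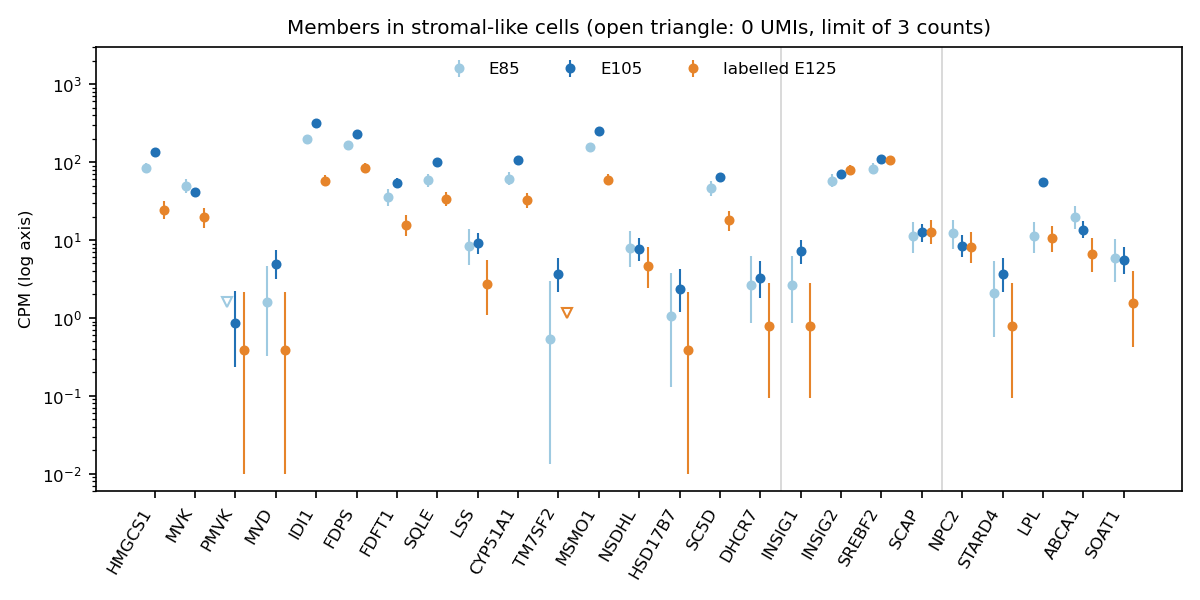
Level of each member in stromal-like cells (CPM, log axis) at E85, E105 and in the library labelled E125, with 95% counting intervals. An open triangle marks 0 UMIs, drawn at the level of 3 UMIs. HMGCS1 stands at 84.3, 135 and 24.6 CPM and IDI1 at 199, 318 and 57.7 CPM, while SREBF2 stands at 82.2, 109 and 108 CPM.

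As shares of UMIs, the isoprenoid enzymes were high and several sterol enzymes low in oocyte-like cells, set against stromal-like cells of the same library. The median depth was 34932 UMIs in oocyte-like and 3157 UMIs in stromal-like cells, with 82.124 and 1.292 enzyme UMIs per cell. A lower share is therefore not read as fewer transcripts per cell. Of the 17 members measured, 7 were higher and 6 were lower, where 45.4% of all features were higher and 33.9% were lower, so neither count stands far from the transcriptome, and with a stricter gate 8 in place of 13 passed the threshold. FDPS stood at 669 CPM in oocyte-like and 85.0 CPM in stromal-like cells, a ratio of 7.87 (6.88 to 9.05), and this was its highest level in any class of the 3 libraries. MVK stood at 78.5 and 19.49 CPM, a ratio of 4.03 (3.02 to 5.47), and IDI1 at 122 and 57.7 CPM, a ratio of 2.11 (1.78 to 2.52). Past squalene the steps parted: NSDHL stood at 42.7 and 4.68 CPM, a ratio of 9.13 (5.18 to 17.8), and HSD17B7 had 34 UMIs and 1 UMI, a ratio of 8.43 (1.41 to 343). CYP51A1 stood at 12.9 and 32.3 CPM, a ratio of 0.40 (0.30 to 0.53), and SC5D, the desaturase near the end of the pathway, at 3.29 and 17.9 CPM, a ratio of 0.18 (0.11 to 0.29).

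In CPM, the control genes parted as well in oocyte-like cells. SCAP stood at 126 CPM in oocyte-like and 12.9 CPM in stromal-like cells, a ratio of 9.83 (6.96 to 14.3), while SREBF2 stood at 38.9 and 108 CPM, a ratio of 0.36 (0.31 to 0.42). SCAP thus stood above the class it was set against in both the germ-like and the oocyte-like class, while SREBF2 did so in the germ-like class and lay below it in the oocyte-like class. ABCA1 and LPL were lower in oocyte-like cells, with ratios of 0.16 and 0.02. Outside the list, STAR, which moves cholesterol into mitochondria, stood at 135 CPM in oocyte-like cells and had 0 UMIs in stromal-like cells, and NR1H2, a receptor of oxidised sterols, stood at 1580 and 71.7 CPM. Of the 137 oocyte-like cells, 108 lay in 1 cluster, and 8.08% of their UMIs were estimated to be free RNA.

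Pregranulosa-like cells held larger shares of MSMO1 and TM7SF2 than stromal-like cells of the same library. Neither gene was highest in this class. MSMO1 was highest in E105 stromal-like cells, at 248 CPM, and TM7SF2 in E105 Leydig-like cells, at 72.3 CPM. The median depth of pregranulosa-like cells was 9960.5 UMIs, against 3157 UMIs in stromal-like cells, so the CPM ratios are not ratios per cell. MSMO1 stood at 222 CPM in pregranulosa-like and 59.6 CPM in stromal-like cells, a ratio of 3.72 (3.15 to 4.42). TM7SF2 had 63 UMIs in pregranulosa-like cells and 0 UMIs in stromal-like cells, at least 6.93-fold higher against a floor of 3 UMIs. Of the 18 members measured, 4 were higher and 7 were lower, where 20.7% of all features were higher and 30.8% were lower, and with a stricter gate 7 in place of 11 passed. After TMM scaling 2478 features were higher and 2543 were lower, against 2052 and 3064 in CPM. SCAP, at a ratio of 2.0 (1.38 to 2.99), and SOAT1, which esterifies cholesterol and whose interval of 0.58 to 6.95 included 1, were the other 2 counted as higher. HMGCS1 was at 0.62 (0.46 to 0.86), SQLE at 0.53 (0.40 to 0.70) and SC5D at 0.32 (0.20 to 0.49), and LPL had 1 UMI in pregranulosa-like and 27 UMIs in stromal-like cells. SCARB1, a lipoprotein receptor outside the list, stood at 54.3 and 12.9 CPM, a ratio of 4.22 (2.96 to 6.21).

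**Figure D5:**
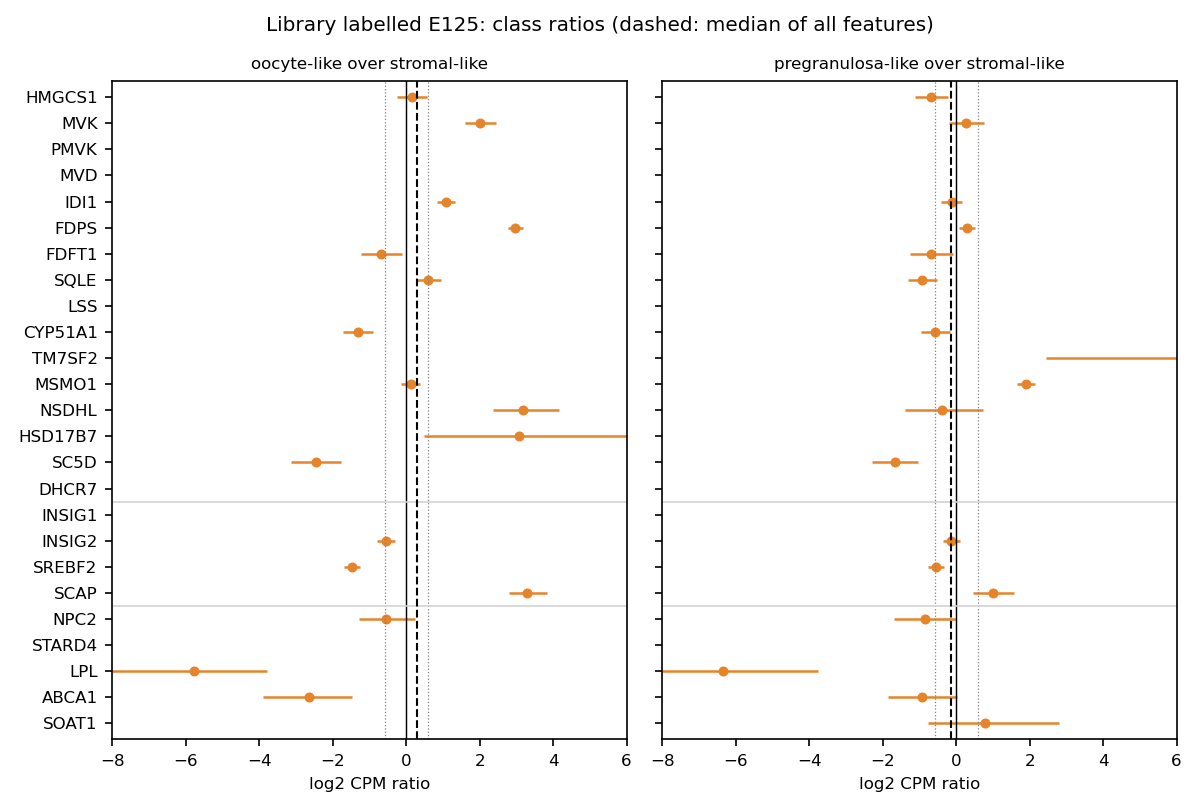
Log2 ratio of oocyte-like over stromal-like and of pregranulosa-like over stromal-like cells in the library labelled E125, for each member measured (x axis), with 95% counting intervals cut at the panel edge and the median of all features as a dashed line. FDPS, NSDHL and SCAP stand to the right in the oocyte-like panel, at ratios of 7.87, 9.13 and 9.83, and MSMO1 in the pregranulosa-like panel, at 3.72. TM7SF2 in the pregranulosa-like panel has no point, since stromal-like cells had 0 UMIs.

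Over the 22 sums of class and library, some enzymes kept one order and others their own. The Spearman correlation of an enzyme's CPM with the summed CPM of the other enzymes was 0.77 for HMGCS1, 0.77 for IDI1, 0.69 for FDPS and 0.65 for SQLE. It was 0.26 for MVK and −0.23 for the control gene SREBF2. For MVD it was −0.05, a value not read further since MVD had few UMIs. These values describe 22 points that share libraries, depth and free RNA. HMGCS1, IDI1, FDFT1, CYP51A1, MSMO1 and SC5D each had their highest level in E105 stromal-like cells. NPC2, which moves cholesterol out of lysosomes, was highest in E85 macrophage-like cells, at 48.3 CPM, and ABCA1 in E105 macrophage-like cells, at 28.2 CPM. PMVK, STARD4, HSD17B7, MVD and DHCR7 had 49, 95, 124, 129 and 157 UMIs over all these sums, too few to order the classes.

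Other genes of sterol and lipid metabolism were read from lists of related function, whose counts stand beside 13.5% of all features higher and 5.11% lower in Sertoli-like cells and 16.3% higher and 5.49% lower in stromal-like cells. Between E105 and E85, 5 of 11 fatty acid synthesis genes measured were higher in Sertoli-like cells and 5 of 11 in stromal-like cells, with 0 lower in either and medians of 0.40 and 0.57 on the log2 scale. FASN, the fatty acid synthase, stood at 133 CPM at E105 and 107 CPM at E85 in Sertoli-like cells, a ratio of 1.248 (1.18 to 1.32). In stromal-like cells it stood at 56.0 CPM at E105 and 31.8 CPM at E85, a ratio of 1.76 (1.32 to 2.37). Among 9 other synthesis genes measured in Sertoli-like cells, 1 was higher and 1 was lower. The lower one was ACAT1, an acetyl-CoA thiolase of mitochondria, at 52.6 CPM at E105 and 86.6 CPM at E85. ACAT1 was lower at E105 in stromal-like cells too, at 38.9 CPM against 66.3 CPM at E85, a ratio of 0.59 (0.47 to 0.74). The lists of SREBP processing, the isoprenoid branch and sterol transport each had medians between −0.06 and 0.15 in Sertoli-like and stromal-like cells. In lipoprotein uptake 2 of 9 genes were higher in Sertoli-like cells and 1 of 7 was higher and 1 lower in stromal-like cells, and of the efflux genes 1 of 5 was lower in Sertoli-like cells and 0 of 4 passed the threshold in stromal-like cells. Of the oxysterol genes, 2 of 4 were higher in Sertoli-like cells, and 2 of 3 were higher and 1 was lower in stromal-like cells.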

How the data were processed

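The deposited tables hold raw UMI counts per gene and barcode, 1 matrix per library. The authors made these counts with Cell Ranger 6.0.0 per the file headers, while the submitters' processing notes name version 3.1, and neither the genome build nor the annotation is stated (not given in the sources used here). Members and gene lists were chosen with earlier results of these data known.

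Barcodes with at least 1000 UMIs, 500 genes and at most 20% of UMIs in 13 mitochondrial genes were kept (Python 3.11.15, NumPy 2.4.6, SciPy 1.17.1, pandas 2.3.3). Scrublet (Scanpy 1.11.5) called 197, 149 and 0 doublets at E85, E105 and E125 by its own threshold, which had thus not worked in the last, and the top 6% of scores were removed in each library. A cell's class needed a mean standardised marker level of at least 0.5, a margin of 0.25 to the next class and 3 markers with a UMI. This scoring rule, the removal of KRT19, KRT8, WT1, FDXR and FDX1 and of the mesothelial, erythroid and rete lists from the gate, and the rule of at least 5 UMIs awaited were set after seeing the data. Leiden clusters used resolution 1, 3000 variable genes without the members, 30 components and 15 neighbours.

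Raw UMIs were summed by class and library and divided by the class total. Intervals are exact, Poisson for levels and binomial for ratios, and were checked on simulated counts. Genes from outside the member list are up to 3 per list and comparison, those with the ratio farthest from 1 and at least 50 CPM in either class. One gene that this rule named is not reported here. Free RNA was the median, over other classes' marker lists, of the list's share in a class over its share in all cells kept. TMM (edgeR 4.0.16) and median-of-ratios factors (DESeq2 1.42.0, R 4.3.3) were other scalings. Alternatives also covered barcode and doublet filters, a stricter gate, clusters, the count minimum, the fold threshold, equal weight of cells and free RNA subtracted.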

Additional observations from a re-analysis of the deposited data

How the results depend on the processing

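No paired analysis was possible because each stage has 1 library and each label is replicate 1, so no library could be left out either. The planned search of promoters for motifs was not run. Of the summary values, 335 were unmoved under the alternatives and 25 moved, and of the values of single members 272 of those recomputed moved and 8 reversed; the causes were not tested beyond what each alternative changes by construction. In Sertoli-like cells, 8 members passed the threshold between E105 and E85: 5 did so with TMM, 5 with median-of-ratios scaling, 3 with clusters in place of the gate, 17 at the lower fold threshold and 0 at 2-fold, while the median log2 ratio stayed between 0.30 and 0.43. In germ-like cells, 4 passed, against 8 with a minimum of 1 UMI, 2 with at most 10% mitochondrial UMIs and 8 at the lower fold threshold. In Leydig-like cells, 7 passed, against 12 with a minimum of 1 UMI, where the median was 0.086. In stromal-like cells, 10 passed, against 3 at 2-fold, and the median was 0.83 in the C7-led cluster alone, an alternative chosen after seeing the data. Between Leydig-like and Sertoli-like cells, 2 passed at E85, against 13 with a minimum of 1 UMI and 1 at 2-fold, and 5 passed at E105, against 17 with a minimum of 1 UMI. Between cells with and without TOP2A, 4 passed at E85, against 7 at the lower fold threshold, 1 at 2-fold and 2 with the stricter gate, and 2 passed at E105, against 7 at the lower fold threshold and 4 each with a minimum of 1 UMI, equal weight of cells and the stricter gate. Against stromal-like cells, 13 passed in oocyte-like cells and 8 with the stricter gate, and 11 passed in pregranulosa-like cells, against 5 at 2-fold and 7 with the stricter gate. Reversed log2 ratios were −0.46 for IDI1 in macrophage-like cells with the stricter gate and, in germ-like over Sertoli-like cells at E85, −0.31 with TMM and −0.27 with median-of-ratios scaling for SQLE, −0.31 and −0.27 for INSIG2, and −0.017 with TMM for ABCA1. At E105 SOAT1 was at −0.16 with TMM and −0.12 with median-of-ratios scaling. Germ-like and Leydig-like cells of both libraries are few, which limits what their sums can resolve.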
